A study of Populus tremula x Populus alba with 4 samples.

Results

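The transcripts described here are those of 8 core circadian clock genes of poplar, chosen by transcript ID from the 41335 IDs listed for every library. They are LHY1 (Potri.002G180800.1), LHY2 (Potri.014G106800.1), a pair of PRR7-like genes called a (Potri.010G215200.1) and b (Potri.008G046200.1), a pair of PRR5-like genes called a (Potri.012G005900.1) and b (Potri.015G002300.1), GI (Potri.005G196700.1) and TOC1 (Potri.015G061900.1). The files carry no gene names, so these are working names that were not checked against an annotation. All 8 IDs were found and all 8 passed the filter on low counts, with between 374 and 45601 reads in a library.

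Bark, the tissue outside the vascular cambium, came from the hybrid poplar Populus tremula x Populus alba, clone INRA 717-1B4, and its messenger RNA was read by paired-end sequencing. There were 2 libraries from wild-type (WT) plants and 2 from MIR15 transgenic plants, both genotypes in this clone and raised in a growth chamber with 16 h of light per day. The labels call the libraries of a genotype biological replicates. They give no promoter or target for MIR15, no number of transgenic lines, no plant age and no hour of harvest. The headers of the MIR15 columns carry the numbers 2 and 3 where the titles have 1 and 2; title numbers are used throughout. Library totals ran from 68453851 to 82789893 reads, with both wild-type libraries above both MIR15 libraries. Marker genes of bark tissues were not examined, because the IDs carry no names. In whole bark, fewer cells of a type and less RNA per cell cannot be told apart.

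The plant circadian clock is a loop of transcription factors that repress one another in turn over the day. In Arabidopsis thaliana the MYB factors LHY and CCA1 peak around dawn and repress genes of the evening, the pseudo-response regulators follow one after another (PRR7 near midday, PRR5 in the afternoon, TOC1 at dusk) and repress LHY and CCA1, and GIGANTEA (GI) peaks late in the day. Poplar LHY1, LHY2 and TOC1 are likewise known as morning and evening genes. The balance of morning to evening transcripts in a sample therefore moves with the hour at which it was taken, and the question asked of these libraries was whether that balance differed between plants of 1 genotype. Levels are given in CPM, the total gene reads of a gene per 1000000 reads of the library total. Transcript lengths are not in the files, so levels are compared between libraries and never between genes.

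The morning genes stood lowest in wild-type replicate 2, and were higher in both MIR15 libraries than in both wild-type libraries. LHY1, a dawn-phased MYB repressor in Arabidopsis, had 322 CPM in wild-type replicate 1, 241 CPM in wild-type replicate 2, 383 CPM in MIR15 replicate 1 and 336 CPM in MIR15 replicate 2. Its close paralogue LHY2 had 551, 454, 638 and 613 CPM in the same order. Both genes were thus lowest in wild-type replicate 2 and highest in MIR15 replicate 1, with no overlap between the genotypes; over all genes tested, 25.1% did not overlap and 11.1% had MIR15 higher. The evening genes did not separate the genotypes in this way. TOC1, a pseudo-response regulator that represses LHY in Arabidopsis, had 19.0 and 27.3 CPM in wild-type replicates 1 and 2, and 21.9 and 18.6 CPM in MIR15 replicates 1 and 2. It was highest in wild-type replicate 2, the library lowest in LHY, and the other 3 libraries lay close together. GI, which in Arabidopsis acts in clock timing and in photoperiodic flowering, stood at 134 and 138 CPM in wild type, and at 170 and 137 CPM in MIR15. Only MIR15 replicate 1 stood apart for GI, above the other 3.

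**Figure D1:**
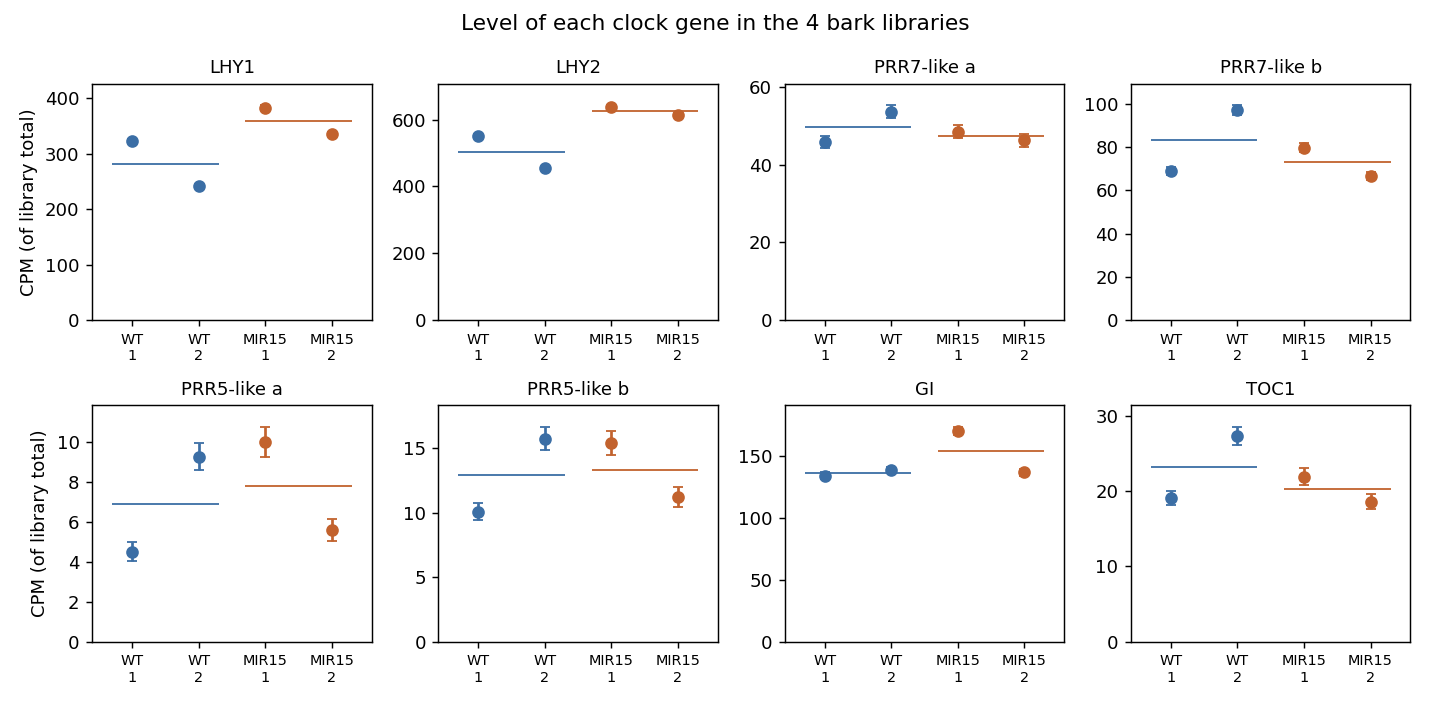
Level of each clock gene in CPM of the library total (linear axes from 0) in wild-type (WT, blue) and MIR15 (orange) bark. Points are single libraries with exact 95% Poisson counting intervals, and horizontal lines are group means of 2 libraries; LHY1 and LHY2 are lowest in WT replicate 2, and both PRR5-like genes are high in WT replicate 2 and MIR15 replicate 1.

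Among the genes of the day, between morning and evening in phase, the PRR5-like pair differed most within a genotype. PRR5-like a, related to an afternoon repressor of LHY and CCA1, had 4.52 and 9.25 CPM in wild-type replicates 1 and 2, and 9.99 and 5.59 CPM in MIR15 replicates 1 and 2. Its paralogue PRR5-like b had 10.1, 15.8, 15.4 and 11.2 CPM in the same order. Both PRR5-like genes were therefore high in wild-type replicate 2 and MIR15 replicate 1, and low in the other library of each genotype. PRR7-like a, related to a midday repressor, varied little, with 45.8 and 53.7 CPM in wild type, against 48.5 and 46.3 CPM in MIR15. PRR7-like b stood at 69.1 and 97.3 CPM in wild type, against 79.9 and 66.7 CPM in MIR15. For both PRR7-like genes wild-type replicate 2 was the highest library.

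Within wild type, the 2 morning genes were lower in replicate 2 and all 6 later-phased genes were higher in replicate 2. The later-phased genes include the PRR7-like pair, which a variant below adds to the morning genes. Under that grouping the morning genes went both ways. As ratios of replicate 2 to replicate 1, LHY1 stood at 0.748 (exact 95% counting interval 0.734 to 0.762) and LHY2 at 0.825 (0.814 to 0.837). TOC1 stood at 1.44 (1.34 to 1.53) and GI at 1.03 (1.01 to 1.06). PRR7-like a and b were at 1.17 (1.12 to 1.23) and 1.41 (1.36 to 1.46), and PRR5-like a and b at 2.05 (1.80 to 2.33) and 1.56 (1.43 to 1.71). Each of these intervals leaves out 1, but that of GI holds it with TMM scaling (0.985 to 1.04) and with RLE scaling (0.987 to 1.04). They are exact conditional binomial intervals that cover counting error only, and reads are not independent molecules; the difference between 1 library and 1 other has no replicate check and no test was made. Past 1.5-fold there were 2 of the 8 genes, both PRR5-like, where 18.4% of all 30975 genes tested lay past 1.5-fold between the same libraries. Among the 20097 genes averaging 5 CPM or more, a level that all 8 clock genes reach, that share was 7.99%. Between the wild-type libraries, 2.16% of those 20097 genes differed by at least as much as PRR5-like a. The like share was 6.41% for PRR5-like b, 10.2% for TOC1, 11.6% for PRR7-like b and 15.9% for LHY1. It was 31.3% for LHY2, 39.3% for PRR7-like a and 84.6% for GI.

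Within MIR15, all 8 genes were lower in replicate 2, morning and evening genes alike. LHY1 stood at 0.876 of replicate 1 (0.861 to 0.892) and LHY2 at 0.962 (0.949 to 0.975). TOC1 was at 0.847 (0.786 to 0.913) and GI at 0.803 (0.782 to 0.826). The PRR7-like genes a and b had ratios of 0.954 (0.909 to 1.00) and 0.835 (0.803 to 0.868), of which the first interval holds 1; with TMM scaling (0.890 to 0.981) and with RLE scaling (0.886 to 0.977) it does not. PRR5-like a and b had ratios of 0.560 (0.493 to 0.635) and 0.728 (0.663 to 0.799). PRR5-like a alone lay past 1.5-fold, 1 of 8 or 12.5%, where 18.7% of all genes tested and 7.33% of those averaging 5 CPM or more lay past it. Between the MIR15 libraries, 2.71% of the genes averaging 5 CPM or more differed by at least as much as PRR5-like a, and 50.6% by at least as much as LHY1. The median gene tested was slightly higher in replicate 2, by 0.03 on the log2 scale in each genotype. Over the 8 clock genes the median was 0.36 in wild type, pooling 6 higher and 2 lower genes, and -0.25 in MIR15. For single genes averaging 5 CPM or more, the 5th to 95th percentile ran from -0.48 to 0.57 in wild type and from -0.48 to 0.56 in MIR15.

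**Figure D2:**
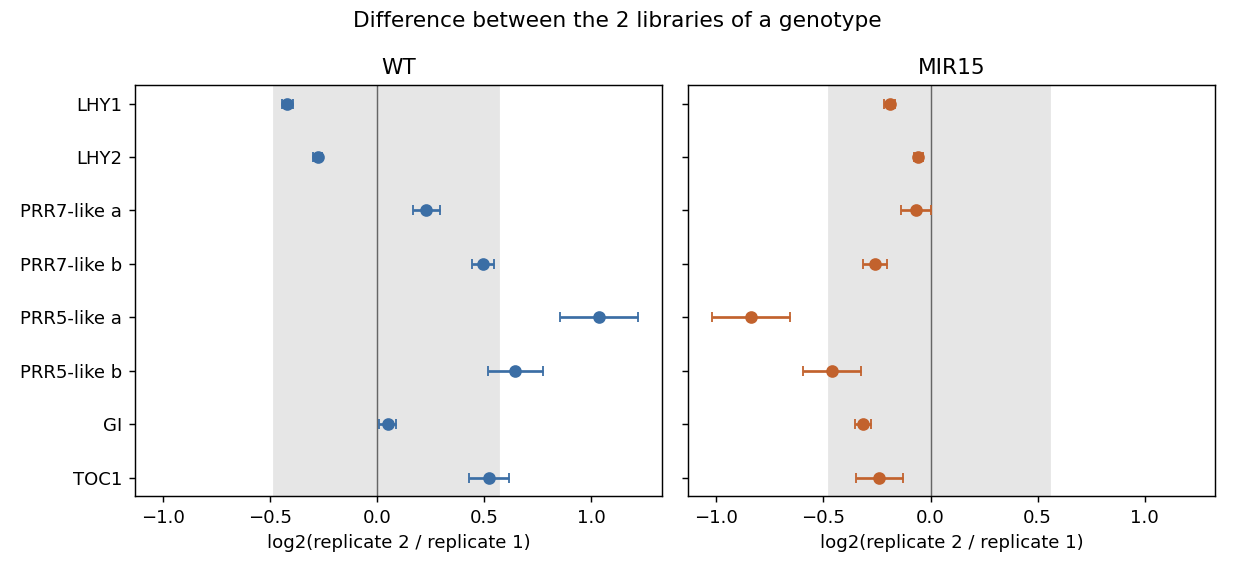
Log2 ratio of replicate 2 to replicate 1 (x axis) for each clock gene, in wild type (WT, left) and MIR15 (right), with exact 95% counting intervals; the grey band spans the 5th to the 95th percentile of the 20097 genes averaging 5 CPM or more. In WT the LHY genes lie below 0 and the other 6 above it, while in MIR15 all 8 lie below 0.

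PRR5-like a was higher in replicate 2 of wild type and lower in replicate 2 of MIR15, past 1.5-fold both times. Of all genes tested, 458 of 30975, or 1.48%, did the same, and 3.41% were higher in replicate 2 past 1.5-fold in both genotypes. The replicate numbers carry no stated pairing between genotypes, and by the column headers wild-type replicate 2 and MIR15 replicate 1 share the number 2. Over the 8 clock genes the root-mean-square log2 difference was smallest between wild-type replicate 1 and MIR15 replicate 2, at 0.14, a pair of different genotypes. The wild-type libraries differed from each other by 0.54 and the MIR15 libraries by 0.38. A root mean square weighs large differences most, and the PRR5-like genes differed most within each genotype. Their log2 differences were 1.03 and 0.64 in wild type and -0.84 and -0.46 in MIR15. The measure without them was not computed. Over the genes averaging 5 CPM or more (after adding 0.5 CPM), the same measure was 0.27 between wild-type replicate 1 and MIR15 replicate 2. It was 0.35 within wild type and 0.34 within MIR15. It was also 0.27 for wild-type replicate 1 against MIR15 replicate 1, the closest pair over those genes by a narrow margin, which stood at 0.50 over the clock genes. Wild-type replicate 2 differed from MIR15 replicates 1 and 2 by 0.35 and 0.48 over the clock genes, and by 0.40 and 0.31 over the genes averaging 5 CPM or more.

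A ratio of evening to morning reads within 1 library does not depend on how libraries are scaled to each other, but its absolute size depends on transcript length and is compared only between libraries. For every 1000 reads of LHY1 and LHY2 together there were 175 reads of TOC1 and GI (exact 95% counting interval 172 to 178) in wild-type replicate 1 and 238 (234 to 243) in wild-type replicate 2. There were 188 (185 to 192) in MIR15 replicate 1 and 163 (160 to 167) in MIR15 replicate 2. These intervals cover counting error only, and no such ratio was computed for other genes as a background. By these values wild-type replicate 2 held the most evening reads per morning read. The other 3 libraries lay within a narrower range on both sides of wild-type replicate 1. TOC1 alone showed the lead of wild-type replicate 2 most. It had 21.8, 39.3, 21.5 and 19.6 reads per 1000 LHY reads in wild-type replicates 1 and 2 and MIR15 replicates 1 and 2. For GI the values were 153, 199, 167 and 144 in that order. PRR7-like reads per 1000 LHY reads ranked the libraries as TOC1 did, with 132, 217, 126 and 119, while PRR5-like reads ran 16.7, 36.0, 24.9 and 17.7, so that MIR15 replicate 1 also stood above the remaining pair.

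Averaged as log2 values, so that TOC1 and GI count equally, evening minus morning was higher by 0.63 in wild-type replicate 2 than in wild-type replicate 1, a ratio of 1.55. In MIR15 it was 0.15 lower in replicate 2 (log2 difference -0.15, a ratio of 0.899). In wild type the sign and the lead of replicate 2 were the same with TOC1 alone (0.87), GI alone (0.40), summed reads (0.45), unique reads (0.64), LHY1 alone as the morning gene (0.70) or LHY2 alone (0.56). In MIR15 it was negative in each of these, from -0.22 with LHY2 alone to -0.09 with LHY1 alone. All these variants share LHY genes as the morning term, so their like signs are not independent. Between the wild-type libraries GI itself differed by only 0.05 on the log2 scale, against -0.42 for LHY1 and -0.28 for LHY2. With the PRR5-like genes added to evening and the PRR7-like genes to morning, the difference was 0.56 in wild type and -0.32 in MIR15. The mean over MIR15 differed from that over wild type by -0.35, or by -0.05 with the PRR genes added. Wild-type replicate 2 decides the first value, since wild-type replicate 1 lay between the MIR15 libraries. The part of the hour of sampling in these differences was not tested, because the labels give none.

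**Figure D3:**
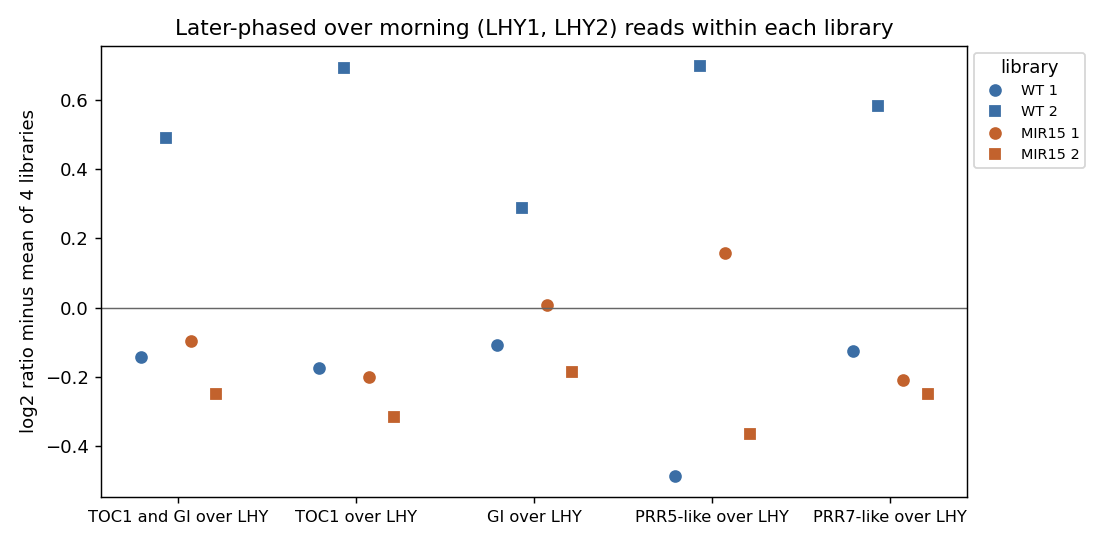
Log2 ratio of later-phased to morning (LHY1, LHY2) reads within each library, less the mean of the 4 libraries (y axis), for TOC1 and GI averaged, TOC1, GI, the PRR5-like pair and the PRR7-like pair (x axis). Each point is 1 library (circles replicate 1, squares replicate 2; blue WT, orange MIR15). WT replicate 2 is highest in all 5 ratios, which share LHY1 and LHY2 as the lower term.

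The proportions of paralogous copies differed between the 4 libraries. For each pair, the exact 95% counting intervals of the lowest and the highest library did not overlap. Such intervals cover counting error only. LHY2 had 1.71 and 1.89 reads per LHY1 read in wild-type replicates 1 and 2, and 1.66 and 1.83 in MIR15 replicates 1 and 2. PRR7-like b had 1.51, 1.81, 1.65 and 1.44 reads per read of PRR7-like a in the same order, highest in wild-type replicate 2. PRR5-like b had 2.23, 1.70, 1.54 and 2.00 reads per read of PRR5-like a, with exact 95% counting intervals of 1.97 to 2.53, 1.55 to 1.87, 1.40 to 1.70 and 1.77 to 2.27. The share of PRR5-like a was thus larger in the pair of libraries where both PRR5-like genes were high, although the intervals of wild-type replicate 2 and MIR15 replicate 2 overlap. Reads shared with other places were few: they made up 2.64% of the reads of LHY2, 0.695% of those of PRR5-like b, 0.294% of those of GI and under that for the other 5 genes.

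Between genotypes, none of the 8 clock genes passed the test, and LHY1 and LHY2 had the largest fold changes. In edgeR's quasi-likelihood test over all 30975 genes, 1 gene was called at an adjusted p under 0.05, or 0.00323% of those tested, and the adjusted p was 1.00 for each clock gene. None had an unadjusted p under 0.05, a level that 2.47% of all genes reached, and DESeq2 likewise called 0 of the 8, with 0 at an unadjusted p under 0.05. LHY1 averaged 282 ± 57.5 CPM in wild type against 359 ± 33.5 CPM in MIR15 (SD, n = 2 each). Its log2 fold change was 0.37 ± 0.21 (SE; edgeR adjusted p = 1.00). LHY2 averaged 503 ± 68.2 CPM in wild type against 625 ± 17.3 CPM in MIR15 (SD, n = 2 each). Its log2 fold change was 0.33 ± 0.19 (SE; edgeR adjusted p = 1.00). These were the 2 of 8 genes whose genotypes did not overlap, both with MIR15 higher, a share close to that of 25.1% over all genes tested. The wild-type libraries bear unequally on the size: without wild-type replicate 2 the fold changes of LHY1 and LHY2 were 0.16 and 0.19, and without wild-type replicate 1 they were 0.61 and 0.50 (edgeR adjusted p = 0.604 and 0.768). In that last fit both had an unadjusted p under 0.05, as did 6.35% of all genes.

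The later-phased genes showed no common direction between genotypes. GI averaged 136 ± 3.25 CPM in wild type against 153 ± 23.6 CPM in MIR15 (SD, n = 2 each), and its log2 fold change was 0.19 ± 0.17 (SE). TOC1 averaged 23.2 ± 5.86 CPM in wild type against 20.2 ± 2.37 CPM in MIR15 (SD, n = 2 each), and its log2 fold change was -0.17 ± 0.21 (SE). For the PRR7-like genes a and b the log2 fold changes were -0.05 ± 0.15 and -0.16 ± 0.20 (SE), and for the PRR5-like genes a and b they were 0.21 ± 0.39 and 0.07 ± 0.26 (SE). Over the 8 genes, 5 values lay above 0 and 3 below, with a median of 0.13, where the median over all genes tested was under 0.01 in size. These genes overlapped between the genotypes, and for 5 of them the sign turned when a single library was left out; GI kept its sign, but ran from 0.0082 without MIR15 replicate 1 to 0.36 without MIR15 replicate 2.

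**Figure D4:**
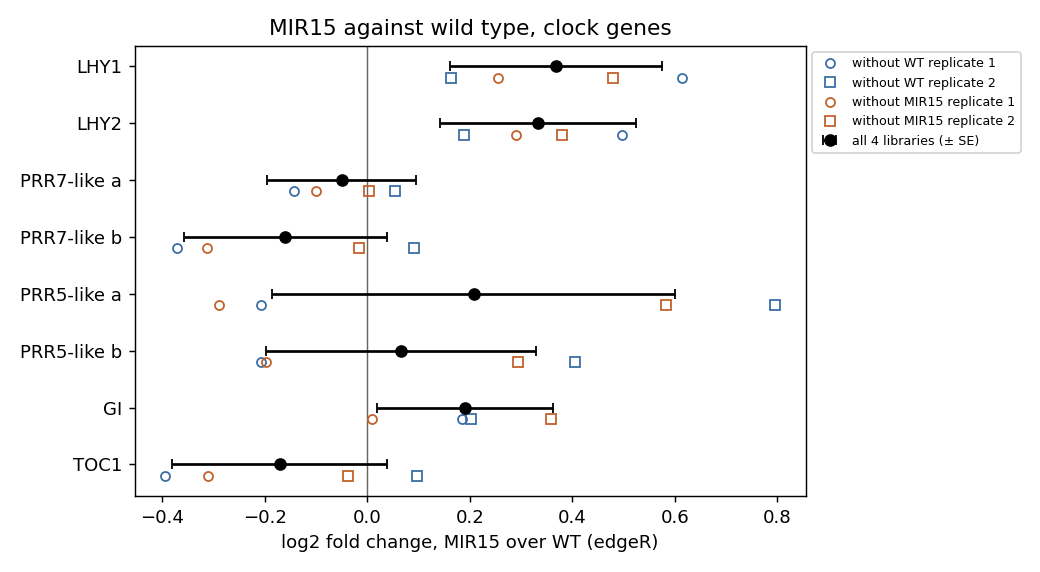
Log2 fold change of MIR15 over WT for each clock gene from edgeR (x axis); filled points with bars are the fit to all 4 libraries ± SE, and open symbols are fits that leave out 1 library. LHY1, LHY2 and GI lie above 0 in all 5 fits, while the PRR7-like genes, the PRR5-like genes and TOC1 change sign.

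By the distance of log2 CPM centred over the 4 libraries, the genes nearest to the mean pattern of LHY1 and LHY2 were Potri.006G043700.1 and Potri.001G105900.1, of 20097 genes averaging 5 CPM or more. Potri.006G043700.1 stood at 194 and 151 CPM in wild type, and at 223 and 204 CPM in MIR15, at a root-mean-square log2 distance of 0.013. Potri.001G105900.1 stood at 24.9 and 19.1 CPM in wild type, and at 29.3 and 26.8 CPM in MIR15, at a distance of 0.016. Both were lowest in wild-type replicate 2 and highest in MIR15 replicate 1, which follows from choosing them by likeness to the LHY genes. The pattern rests on only 4 libraries. LHY1 and LHY2, which define it, each lay at 0.036 and shared rank 15, so other genes lay nearer than they did. Within 0.05 of the pattern lay 49 genes, or 0.244%, and within 0.1 lay 479 genes, or 2.38%, LHY1 and LHY2 included. Among the other clock genes GI was nearest at 0.18, rank 3636 of 20097, and PRR5-like a farthest at 0.55. Within 0.2 of the LHY pattern lay 5124 genes, or 25.5%.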

How the data were processed

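Bark RNA was sequenced in 4 libraries, 2 a genotype, grouped by sample title. Per the file headers, the authors deposited counts of unique and of total gene reads made with CLC, and a DESeq normalised signal. The deposited signal equals total gene reads divided by 1 constant per library, from 0.906 to 1.11. For the aligner, genome build and annotation, versions and settings were not given in the sources used here. The test on total gene reads used edgeR 4.0.16 (R 4.3.3): filterByExpr, TMM, quasi-likelihood F test, two-sided, Benjamini-Hochberg adjustment over 30975 genes. SEs were derived from the F statistic. Levels use the library total without TMM factors (0.983 to 1.02). The fit was tested on simulated data. Intervals are exact and cover counting error only.

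Named were the 8 members, and the 2 genes nearest to the LHY pattern. The members and lists were chosen with earlier results of these data known. A list of further clock genes and tissue markers, written as name patterns, could not be filled, so it was not analysed here. Which members count as morning (LHY1, LHY2) and evening (TOC1, GI) follows general knowledge. Alternatives were RLE factors, library size alone, no filter, DESeq2 1.42.0, a replicate block, unique reads, each library left out, and other evening and morning sets; LHY1 or LHY2 alone as morning, and the share among genes of at least 5 CPM, were added after seeing the data. With 2 libraries a group, p-values rest on a spread that may be partly technical.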

Additional observations from a re-analysis of the deposited data

How the results depend on the processing

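No clock gene was called under any of the 10 alternative fits. The count over all genes was 1 with edgeR on total reads, 14 with DESeq2, 120 with a replicate block by title number, and 0 in unique reads (768 at an unadjusted p under 0.05); without single libraries it ran from 0 to 8. With the block, LHY1 had a log2 fold change of 0.38 and an edgeR adjusted p of 1.00. Libraries of the same number deviated together (correlation 0.25), but no label pairs them. Fits that leave out a library assume that the lone sample varies like the other group. Across them the log2 fold change ran from -0.14 to 0.054 for PRR7-like a, from -0.37 to 0.091 for PRR7-like b, from -0.29 to 0.80 for PRR5-like a, from -0.21 to 0.41 for PRR5-like b and from -0.39 to 0.097 for TOC1. Those of PRR7-like b and TOC1 turned without wild-type replicate 2, that of PRR7-like a also without MIR15 replicate 2, and those of the PRR5-like genes without wild-type replicate 1 or MIR15 replicate 1; no other cause was tested. Without wild-type replicate 1, LHY1 and LHY2 had unadjusted p of 0.0201 and 0.0449 in edgeR, where 6.35% of genes were under 0.05.

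Evening minus morning, replicate 2 minus replicate 1, was 0.63 in wild type; it became 0.56 with PRR5-like genes added to evening and PRR7-like genes to morning, 0.40 with GI alone, 0.87 with TOC1 alone, 0.45 in summed reads, 0.70 with LHY1 alone and 0.56 with LHY2 alone. In MIR15 it was -0.15, and became -0.32 with the PRR genes added, -0.087 with LHY1 alone and -0.22 with LHY2 alone. MIR15 minus wild type was -0.35 and ran from -0.52 with TOC1 alone to -0.05 with the PRR genes added. No scaling turned the sign of a replicate difference of a clock gene; TMM and RLE moved them by at most 0.036, which brings 1 into the counting interval of GI in wild type and takes it out of that of PRR7-like a in MIR15. Each clock gene had at least 374 reads in a library; depth was not varied.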
